A study of Mus musculus with 6 samples.

Results

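Immunoglobulin kappa variable segments are the gene pieces from which the amino-terminal part of an antibody kappa light chain is built. They were taken as every gene symbol of the expression tables that starts with Igkv followed by a digit, which gave 118 segments of 30733 symbols. The number before the hyphen of a symbol names its V family, and the 118 segments fall into 20 families. By the GENCODE M21 annotation, 99 are V genes and 19 are V pseudogenes, which have a defect that keeps them from coding for a working chain.

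The cells came from the bone marrow of mice labelled wild type (WT) that had received 5 Gy total body irradiation, and were labelled haematopoietic stem cells. They had been sorted into cells with high MHC class II (MHCII-hi) and cells with low MHC class II (MHCII-lo), with 3 libraries in each group. Both groups were irradiated, so the libraries hold no unirradiated control. The sources used here do not give the sort gates, the time after irradiation or the age of the animals. They also do not say whether the libraries of a group came from separate mice, so p-values may reflect technical spread alone.

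As background, a developing B cell joins 1 kappa V segment to 1 of the J segments by RAG recombination, and the joined exon is then spliced to the constant exon, Igkc. A V segment that points the same way as the J segments is joined by deletion of the DNA between them, and one that points the other way by inversion. The joined V segment is transcribed from its own promoter, at a high rate in plasma cells, the antibody-secreting end stage of the B lineage. Haematopoietic stem cells are not known to rearrange kappa genes.

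The 118 segments lie on chromosome 6 of the mouse build GRCm38, between positions 67555497 and 70704177, upstream of the first J segment, Igkj1, at 70722562 to 70722599. Their distance to Igkj1 ran from 18.4 to 3166 kb. The orientation was that of the J segments for 48 and opposite for 70. Exon length ran from 298 to 501 bases, so a low value in FPKM, a unit that divides fragments by transcript length and library depth, rests on few fragments. Related segments are also close in sequence. Over the 99 V genes, the nearest other segment matched at a median of 94.2% of coding bases, 45 had a relative at 95% or more, and for 92 the nearest relative was of the same family. The coding bases below were read from the GENCODE M21 transcripts of GRCm38, 5′ to 3′ along the transcript and joined across the intron. For each pair the run starts at base 61 of the coding sequence, which leaves out most of the leader peptide, and ends at the last coding base or at base 360.

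The first pair is shown because Igkv14-126 (chr6:67896172-67896642, plus strand) had the largest fall in share between the groups, and Igkv14-111 (chr6:68256389-68256869, plus strand) is the most abundant member of its family in MHCII-hi. Over their whole coding length they differ at 30 of 353 bases, an identity of 91.5%, with a longest identical run of 44 bases. Capitals mark the bases that differ within the pair, 27 in the stretch shown.
Igkv14-126: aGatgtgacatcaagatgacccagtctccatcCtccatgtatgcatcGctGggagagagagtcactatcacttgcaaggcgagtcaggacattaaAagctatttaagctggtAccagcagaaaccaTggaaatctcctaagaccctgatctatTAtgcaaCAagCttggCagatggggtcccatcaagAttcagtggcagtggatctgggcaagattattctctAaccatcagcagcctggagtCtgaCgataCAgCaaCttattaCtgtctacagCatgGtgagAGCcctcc
Igkv14-111: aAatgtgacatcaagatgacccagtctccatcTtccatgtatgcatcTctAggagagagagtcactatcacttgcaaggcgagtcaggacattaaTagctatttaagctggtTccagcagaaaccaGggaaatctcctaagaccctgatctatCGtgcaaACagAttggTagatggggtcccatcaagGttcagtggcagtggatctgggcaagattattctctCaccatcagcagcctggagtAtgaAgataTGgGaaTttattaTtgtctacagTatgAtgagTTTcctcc

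The second pair lies at the far end of the locus and had smaller shares in MHCII-hi. Igkv1-133 (chr6:67724902-67725661, plus strand) and Igkv1-135 (chr6:67609713-67610508, plus strand) differ at 12 of 362 coding bases, an identity of 96.7%, with a longest identical run of 95 bases. The 11 differing bases in the stretch shown are in capitals.
Igkv1-133: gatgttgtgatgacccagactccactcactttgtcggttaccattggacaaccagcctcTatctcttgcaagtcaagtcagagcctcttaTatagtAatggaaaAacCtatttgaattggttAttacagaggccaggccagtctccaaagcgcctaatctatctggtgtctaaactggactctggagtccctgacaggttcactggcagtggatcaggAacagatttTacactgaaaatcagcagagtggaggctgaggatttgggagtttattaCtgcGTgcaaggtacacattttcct
Igkv1-135: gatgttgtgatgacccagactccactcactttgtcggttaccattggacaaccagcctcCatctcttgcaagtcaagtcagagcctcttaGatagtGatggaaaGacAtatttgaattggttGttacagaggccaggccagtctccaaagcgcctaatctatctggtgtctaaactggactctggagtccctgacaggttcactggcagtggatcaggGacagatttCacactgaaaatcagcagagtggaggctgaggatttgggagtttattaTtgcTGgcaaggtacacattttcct

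The third pair had larger shares in MHCII-hi. Igkv4-68 (chr6:69304834-69305405, minus strand) and Igkv4-69 (chr6:69283794-69284319, minus strand) are neighbours on the chromosome and differ at 16 of the 348 bases compared, with an identity of 95.4% and a longest identical run of 68 bases. The 13 differing bases in the stretch shown are in capitals. Each has a relative at least as close, Igkv4-61 for Igkv4-68 and Igkv4-70 for Igkv4-69.
Igkv4-68: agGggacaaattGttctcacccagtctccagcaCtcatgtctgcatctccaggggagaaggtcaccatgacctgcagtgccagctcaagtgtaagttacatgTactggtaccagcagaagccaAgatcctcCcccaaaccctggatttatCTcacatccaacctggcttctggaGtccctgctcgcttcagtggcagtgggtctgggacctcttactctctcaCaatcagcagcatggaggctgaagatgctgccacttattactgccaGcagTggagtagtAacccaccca
Igkv4-69: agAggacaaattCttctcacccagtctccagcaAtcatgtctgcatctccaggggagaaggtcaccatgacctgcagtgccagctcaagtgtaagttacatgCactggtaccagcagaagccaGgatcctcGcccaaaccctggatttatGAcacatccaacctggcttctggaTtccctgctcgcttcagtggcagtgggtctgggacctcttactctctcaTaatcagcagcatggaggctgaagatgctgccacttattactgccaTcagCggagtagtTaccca

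The ends of the 4 most abundant segments in MHCII-hi are shown for the part that enters the antigen-contacting loop at the V to J junction. The last 60 coding bases are given, with the 23 bases after the last in-frame cysteine codon in capitals.
Igkv10-96: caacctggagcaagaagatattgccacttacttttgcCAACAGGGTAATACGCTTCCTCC
Igkv1-110: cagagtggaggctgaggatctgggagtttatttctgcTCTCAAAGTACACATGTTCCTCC
Igkv1-117: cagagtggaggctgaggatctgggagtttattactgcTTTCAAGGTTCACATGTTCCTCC
Igkv14-111: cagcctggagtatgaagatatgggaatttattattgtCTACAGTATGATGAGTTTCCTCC

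The libraries summed to between 332289 and 383600 FPKM, and their depth, estimated from the size of the smallest steps in the values, was 2.04e+07 to 3.27e+07 fragments. The class II genes H2-Aa, H2-Ab1 and H2-Eb1, which encode the proteins of the sort's name, all passed the test as higher, with summed levels of 210.8 to 217.1 FPKM in MHCII-hi, against 7.97 to 8.93 in MHCII-lo. Of 10 stem cell markers, Procr, Slamf1, Mecom, Fgd5 and Hoxb5 averaged under 0.5 FPKM in each group, while 9 neutrophil markers summed to 16971 to 17314 FPKM in MHCII-hi, against 38772 to 39349 in MHCII-lo. Kit and Ly6a, also used to sort stem cells, measured 15.0 and 35.5 FPKM in MHCII-hi, with 12.6 and 2.50 in MHCII-lo. The markers that best define stem cells were thus near 0 beside abundant neutrophil transcripts, and the groups are called by their class II labels.

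The kappa variable segments were far more abundant in MHCII-hi. Their summed level was 25597, 25581 and 25469 FPKM for the MHCII-hi group and 434.3, 462.9 and 445.8 FPKM for the MHCII-lo group. The groups were far apart and each was tight, with means of 25549 ± 69.7 and 447.7 ± 14.4 FPKM (SD, n = 3 each), a ratio of 57.1. As a part of all FPKM of a library, the pool came to 6.67% ± 0.0147 for MHCII-hi against 0.135% ± 0.00448 for MHCII-lo. Because FPKM divides by length and the segments are short, weighting each gene by its exon length gave 1.10% and 0.0192% of each library. The ratio of the percents was 49.6 as deposited and 57.4 by length. In bulk RNA of this kind, fewer cells of a type and less RNA per cell cannot be told apart.

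The other pieces of the kappa locus stood in a similar proportion. Igkc, the shared constant exon, measured 18162 ± 280.2 FPKM against 308.6 ± 9.98 (SD, n = 3 each), a 58.8-fold difference with an adjusted p of 1.7e-10 from limma. The ratio of summed Igkv to Igkc was 1.41 ± 0.0206 and 1.45 ± 0.0260. Of the J segments, Igkj1 was 56.8-fold, Igkj2 61.02-fold, Igkj4 50.7-fold and Igkj5 59.99-fold higher. Igkj3 was low in both groups, at 19.9 and 0.40 FPKM.

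B-lineage markers moved with the segments. Plasma cell markers, 12 in all, summed to 1576 to 1584 FPKM in MHCII-hi, against 109.7 to 113.0 in MHCII-lo. Of these, 11 were called higher and 1, Fkbp11, lower, beside 25.5% higher and 33.1% lower over all genes tested. Of the 12, 7 reached the minimum for testing, a mean of 1 FPKM over the libraries, through MHCII-hi alone and so had to lie higher there. Jchain, which links antibody subunits into polymers, measured 1342 ± 13.0 and 14.2 ± 1.45 FPKM and made up most of the MHCII-hi sum. Xbp1, at 78.4 and 64.7 FPKM, and Txndc5, at 45.4 and 23.4, made up most of the MHCII-lo sum. The sums thus do not give the change of a typical plasma cell marker. Mature B cell markers, 11 in all, summed to 59.3 to 62.8 FPKM in MHCII-hi and 8.81 to 9.67 in MHCII-lo. Cd79a and Cd79b, at 24.3 and 19.4 FPKM, made up most of the MHCII-hi sum. Cd79b, at 7.47 FPKM, made up most of the MHCII-lo sum. Only 4 of the 11 reached the minimum for testing, 2 of them through MHCII-hi alone. The defining markers Ms4a1 and Pax5 were low in MHCII-hi as well, at 1.36 and 1.21 FPKM, and at or near 0 in MHCII-lo. Early B and pre-B markers, 9 in all, summed to 23.5 to 26.1 FPKM in MHCII-hi and 3.21 to 4.13 in MHCII-lo. Dntt, at 12.1 and 1.38 FPKM, and Il7r, at 6.39 and 1.84, made up most of both sums. Only 3 of the 9 reached the minimum, and 1 of these, Vpreb3, did so through MHCII-hi alone. Rag1, which starts recombination, was at 0.617 FPKM in MHCII-hi and listed at 0 in every MHCII-lo library. The part of these cells in the kappa result was not tested.

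Segment by segment, the rise was shared by nearly all members. Of the 118 segments, 94 averaged at least 1 FPKM over the 6 libraries and were tested, and the other 24 were below that minimum. By limma on log2(FPKM + 1), with Benjamini-Hochberg adjustment over all 12110 genes tested, 93 were higher and 0 lower in MHCII-hi, and 0 were lower at an unadjusted p under 0.05 as well. Over all genes tested, 25.5% were higher and 33.1% lower. When immunoglobulin genes were left out of the scaling, the median change over all genes went from -0.04 to 0.11 on the log2 scale and the split over all genes from 3084 higher and 4009 lower to 4934 and 2127, while the count for the segments stayed at 93 and 0. The median log2 change of the 94 tested segments was 5.49, against -0.04 for all genes tested. Of the 94 tested segments, 94 had all MHCII-hi values above all MHCII-lo values, against 29.0% of the genes tested. Counting every segment, with those below the minimum, 103 of 118 did so and 15 overlapped. A segment that reached the minimum through MHCII-hi alone had to lie higher there, which holds for the 26 tested segments with a MHCII-lo mean under 1 FPKM, 6 of them listed at 0 in all MHCII-lo libraries. The other 68 tested segments averaged at least 1 FPKM in MHCII-lo, and 68 of these 68 were called higher.

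The size of the rise varied between segments. Over the 74 segments above 0 in all MHCII-lo libraries, the ratio of mean FPKM ran from 6.12 to 288, with a median of 61.3 and quartiles of 43.4 and 81.9. The lowest ratios belonged to Igkv14-126, Igkv1-133, Igkv3-9 and Igkv4-63, and the highest to Igkv14-100.

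**Figure D1:**
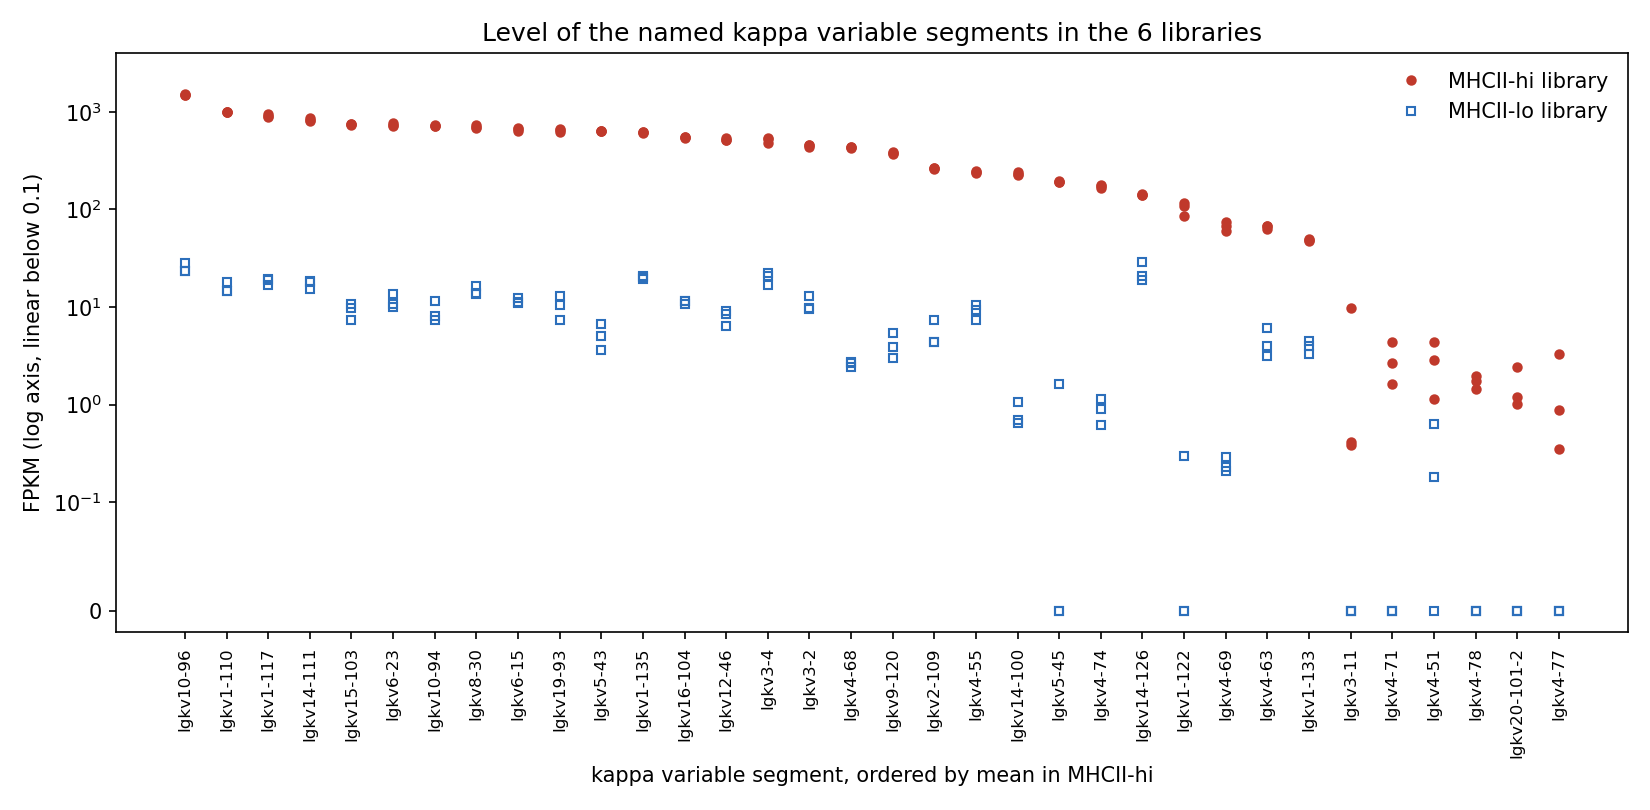
FPKM of the named segments in each library (log axis, linear below 0.1); filled points are MHCII-hi libraries and open squares MHCII-lo libraries. The MHCII-hi points lie near 1500 FPKM for Igkv10-96, and the MHCII-lo squares of Igkv14-126, at 19.1 to 28.9 FPKM, stand above those of segments with a similar MHCII-hi level.

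Igkv10-96 (chr6:68631963-68632442, minus strand) was the most abundant segment by mean in both groups. It measured 1488, 1516 and 1471 FPKM in MHCII-hi, against 23.3, 28.5 and 23.3 in MHCII-lo. The groups did not overlap, and the log2 change was 5.85 with an SE of 0.07 (adjusted p 8.0e-09 from limma). As a share of the summed Igkv FPKM it held 5.84% ± 0.0799 and 5.58% ± 0.50 (SD, n = 3 each), so that its shares overlapped between groups.

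Igkv1-110 followed in MHCII-hi, at 986.4, 990.4 and 994.2 FPKM, with 14.5, 14.6 and 18.0 in MHCII-lo. Igkv1-117 measured 896.4, 894.0 and 952.3 FPKM in MHCII-hi, against 18.9, 19.3 and 16.6 in MHCII-lo. Igkv14-111 measured 830.0, 807.6 and 853.7 FPKM, with 18.0, 18.6 and 15.1 in MHCII-lo. In each of these the MHCII-hi libraries stood close together, and all lay far above MHCII-lo. The next 6 by level in MHCII-hi were Igkv15-103, Igkv6-23, Igkv10-94, Igkv8-30, Igkv6-15 and Igkv19-93, with means from 648.9 to 746.8 FPKM in MHCII-hi and MHCII-lo means from 9.0 to 14.7 FPKM.

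The 10 most abundant segments of a library held 33.1% ± 0.254 of the pool in MHCII-hi, against 40.0% ± 1.07 in MHCII-lo (SD, n = 3 each), and by group mean 7 of the 10 were common to both lists. Use was thus spread over more segments in MHCII-hi. The effective number of segments, the exponential of the Shannon entropy of the shares, was 59.2, 58.9 and 58.96 in MHCII-hi libraries and 51.2, 51.4 and 51.3 in MHCII-lo. Between 106 and 110 segments were above 0 in a MHCII-hi library, and 81 in each MHCII-lo library. The pool held an estimated 192820 to 309434 fragments in a MHCII-hi library and 3668 to 4113 in a MHCII-lo library, and the part of this depth in the effective number was not tested.

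The 5 segments with the highest MHCII-lo levels outside the 10 highest in MHCII-hi were Igkv14-126, Igkv1-135, Igkv3-4, Igkv16-104 and Igkv3-2. Igkv14-126 measured 20.8, 28.9 and 19.1 FPKM in MHCII-lo, where it ranked 2nd, and 139.2, 138.9 and 143.7 in MHCII-hi, where it ranked 53rd. It was the first-ranked segment of MHCII-lo replicate 2. Igkv3-4 measured 22.5, 16.9 and 20.8 FPKM in MHCII-lo and 528.4, 534.2 and 483.1 in MHCII-hi.

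To ask whether a segment moved more or less than the pool, every library was scaled so that its summed Igkv FPKM equalled the mean of the MHCII-lo libraries, and limma was fitted to log2(scaled value + 0.1) over all 11842 genes with a mean scaled value of at least 0.5. Of the 118 segments 76 were tested. At a Benjamini-Hochberg adjusted p under 0.05, 25 had a larger and 17 a smaller share in MHCII-hi, and 34 passed in neither direction. Scaling by the median ratio of the segments in place of their sum turned this into 22 and 23. The background was 0.464% of genes higher and 98.8% lower, because dividing by a pool that rose 57.1-fold lowers nearly every other gene, and so the adjustment changes the p-values of the segments very little. With Bonferroni adjustment over the same genes, which passed 0.0591% of genes as higher and 96.3% as lower, 2 segments had a larger and 3 a smaller share.

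**Figure D2:**
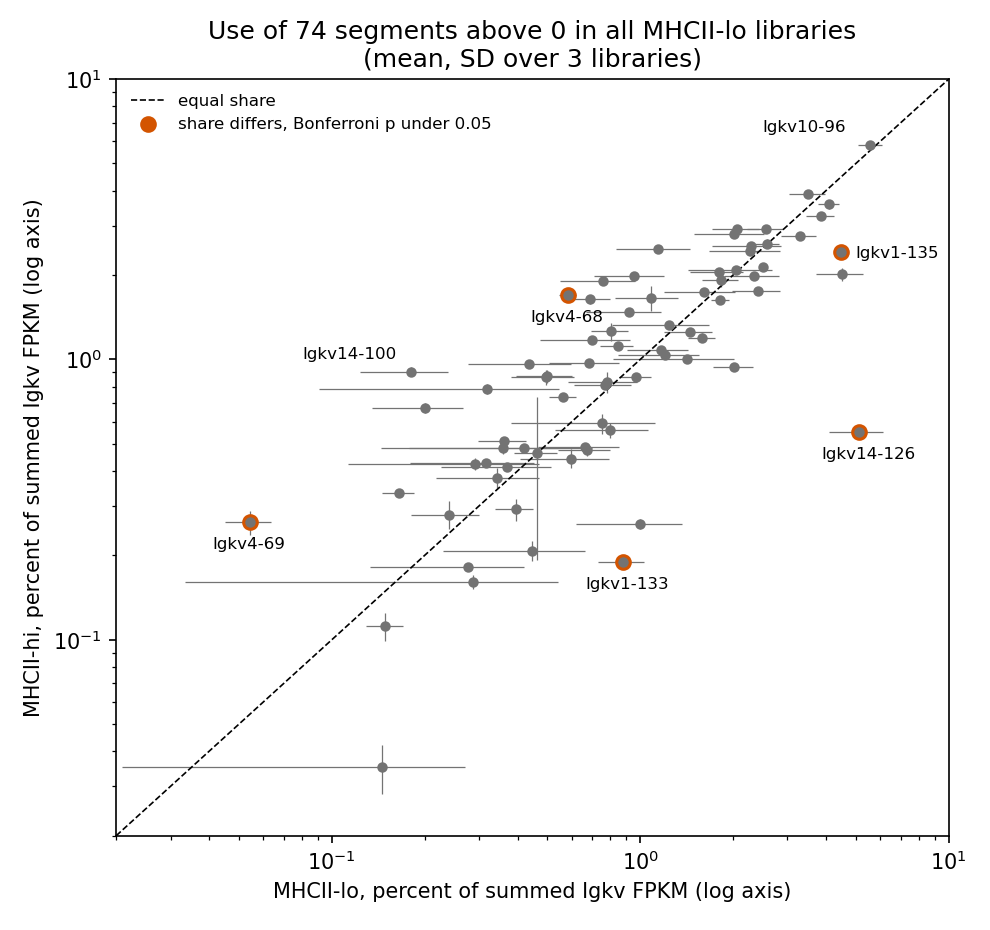
Percent of summed Igkv FPKM in MHCII-lo (horizontal) and MHCII-hi (vertical) for the 74 segments above 0 in all MHCII-lo libraries, both on log axes, with the mean and SD of 3 libraries. Orange points are the 5 segments past Bonferroni adjustment; Igkv14-126 lies farthest below the line of equal share, at 5.11% in MHCII-lo and 0.55% in MHCII-hi.

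Igkv14-126, whose sequence is given above, showed the largest fall in share. It held 4.79%, 6.25% and 4.29% of the pool in MHCII-lo and 0.544%, 0.543% and 0.564% in MHCII-hi. No MHCII-lo library came near the MHCII-hi values, and the log2 change in share was -3.15 (SE 0.13, Bonferroni p 0.000836 from limma). Its level still rose 6.12-fold, the smallest ratio among the 74 segments, on an estimated 168.7 to 249.0 fragments per MHCII-lo library. Its nearest relative, Igkv14-111, held 3.85% in MHCII-lo and 3.25% in MHCII-hi, a log2 change of -0.24.

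Igkv1-135 and Igkv1-133, the near-identical pair at the far end of the locus, also had smaller shares. Igkv1-135 measured 19.3, 20.8 and 20.2 FPKM in MHCII-lo and 620.5, 620.7 and 609.0 in MHCII-hi. Its share was 4.48% ± 0.0422 and 2.41% ± 0.0198 (SD, n = 3 each), a log2 change of -0.89 (SE 0.03, Bonferroni p 7.9e-05 from limma). Igkv1-133 measured 4.49, 4.02 and 3.29 FPKM in MHCII-lo and 50.1, 48.6 and 47.0 in MHCII-hi. Its share was 0.880% ± 0.148 and 0.190% ± 0.00552, a log2 change of -2.07 (SE 0.11, Bonferroni p 0.00552 from limma). With 12 bases between them, reads of the pair may have been assigned to either, so their separate values are less certain than their sum.

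Igkv4-68 had the clearest gain. It measured 434.8, 438.9 and 425.6 FPKM in MHCII-hi, against 2.67, 2.73 and 2.41 in MHCII-lo. All 3 shares in MHCII-hi were above those in MHCII-lo, at 1.70% ± 0.0225 against 0.582% ± 0.0377, a log2 change of 1.51 (SE 0.05, Bonferroni p 0.000210 from limma). Igkv4-68 is 96.3% identical to Igkv4-61, with an identical run of 122 bases, so reads may have been split between them. Igkv4-61 held 0.475% in MHCII-hi and 0.671% in MHCII-lo, and the part of read assignment in these shares was not tested. Igkv4-69 measured 67.2, 60.7 and 73.4 FPKM in MHCII-hi, against 0.21, 0.23 and 0.29 in MHCII-lo. Its log2 change in share was 1.90 (SE 0.11, Bonferroni p 0.00739 from limma), but each MHCII-lo value amounts to an estimated 1.67 to 2.49 fragments. Igkv14-126, Igkv1-135 and Igkv4-68 passed Bonferroni adjustment in all 12 other settings of the share fit. With 1 library left out, 1 to 5 segments passed it as larger and 2 to 5 as smaller. Igkv1-133 missed it without MHCII-hi replicate 1, 2 or 3 or MHCII-lo replicate 2 (Bonferroni p from limma 0.0511, 0.0693, 0.0691 and 0.133). Igkv4-69 missed it without MHCII-hi replicate 1, 2 or 3 or MHCII-lo replicate 1 or 2 (Bonferroni p from limma 0.201, 0.106, 0.179, 0.0719 and 0.104).

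The remaining segments with large changes in share passed only the weaker adjustment with all libraries and the stated minimum. With MHCII-lo replicate 1 left out, Igkv14-100, Igkv1-122 and Igkv4-55 were among the 10 segments that passed Bonferroni adjustment in limma (p 6.4e-05, 0.00123 and 0.0111), and with MHCII-lo replicate 2 left out, Igkv5-45 and Igkv3-4 were among 6 (p 6.3e-07 and 0.0270). Igkv14-100 passed as well with a minimum scaled value of 2 (p 0.0161). Igkv14-100 measured 225.5, 228.5 and 239.5 FPKM in MHCII-hi, against 1.07, 0.69 and 0.65 in MHCII-lo, a log2 change in share of 2.23 (Bonferroni p 0.0670 from limma), on an estimated 5.65 to 8.62 fragments per MHCII-lo library. Igkv4-74 measured 164.3, 177.6 and 174.1 FPKM, against 1.15, 0.62 and 0.90. Igkv5-45 was listed at 0 in MHCII-lo replicates 1 and 3 and at 1.64 FPKM in replicate 2, and stood at 190.9 to 196.8 FPKM in MHCII-hi. It is 98.6% identical to Igkv5-43, with an identical run of 193 bases, so reads may have been split between them. Igkv1-122 was at 0.30 FPKM in MHCII-lo replicate 1 and listed at 0 in the other libraries of its group, against 86.2 to 116.3 FPKM in MHCII-hi.

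On the side of smaller shares, Igkv4-63 went from 0.995% ± 0.375 in MHCII-lo to 0.258% ± 0.0108 in MHCII-hi (log2 change -1.80). Igkv3-4, the fourth-ranked segment of MHCII-lo, went from 4.50% ± 0.784 to 2.02% ± 0.104 (log2 change -1.13). Igkv4-55 went from 2.02% ± 0.297 to 0.941% ± 0.0204 (log2 change -1.07). In all, 12 segments gained and 5 lost by at least 1 on the log2 scale among those past the Benjamini-Hochberg threshold. Of the 42 segments past it, 34 passed with each library left out in turn.

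Among the 10 most abundant segments, changes in share were small. Igkv15-103 held 2.92% and 2.07% (limma adjusted p 0.00429) and Igkv10-94 held 2.80% and 2.01% (0.0152). Igkv1-117 held 3.58% and 4.08% (0.0196), Igkv14-111 3.25% and 3.85% (0.0168), and Igkv8-30 2.75% and 3.29% (0.0248). None of these reached Bonferroni significance, and with 1 library left out only Igkv15-103 passed throughout: the adjusted p of Igkv1-117 was 0.0599 without MHCII-hi replicate 2, that of Igkv10-94 0.0579 without MHCII-lo replicate 2, that of Igkv14-111 0.0588 without MHCII-lo replicate 2 and that of Igkv8-30 0.0644 without MHCII-hi replicate 1. Conversely, Igkv10-96 and Igkv6-23 passed as larger without MHCII-lo replicate 2 (limma adjusted p 0.00166 and 0.00126) and Igkv1-110 without MHCII-lo replicate 3 (0.000577).

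By family, Igkv4 was the largest in MHCII-hi, with 31 segments and 14.3% ± 0.174 of the pool, against 13.1% ± 0.292 in MHCII-lo (SD, n = 3 each). Its most abundant member was Igkv4-68, and within it 6 segments had larger and 4 smaller shares of 18 tested. Igkv6, with 9 segments, held 12.4% ± 0.247 and 10.8% ± 0.676. Igkv10, with 3 segments, held 8.68% and 7.59%, and Igkv5, with Igkv5-43 as its top member, 6.99% and 5.44%. In these, and in Igkv9 and Igkv15, the 3 MHCII-hi shares were all above the 3 MHCII-lo shares. Shares are parts of 1 pool, so the fall of Igkv14-126 from 5.11% to 0.55% by itself raises the other families in MHCII-hi. The gaining families were not recomputed without that segment, so their gains are not read as their own.

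Igkv1, Igkv14 and Igkv16 were the families with all MHCII-hi shares below all MHCII-lo shares. Igkv14 held 9.51%, 10.8% and 8.27% in MHCII-lo and 4.98%, 4.85% and 5.17% in MHCII-hi. Without Igkv14-126 the family held 4.66% ± 0.443 and 4.47% ± 0.146 of the remaining pool, and the groups overlapped. Igkv1 held 13.7% ± 0.121 in MHCII-lo and 11.1% ± 0.0849 in MHCII-hi, with 4 of its 7 tested segments smaller and 1 larger. Without the 5 segments past Bonferroni adjustment it held 9.40% and 8.97%. Igkv16, a family of 1 segment, held 2.50% and 2.14%. For Igkv3, Igkv8, Igkv12, Igkv17, Igkv19, Igkv13, Igkv2 and Igkv11 the shares overlapped. These are sums over members and were not tested.

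**Figure D3:**
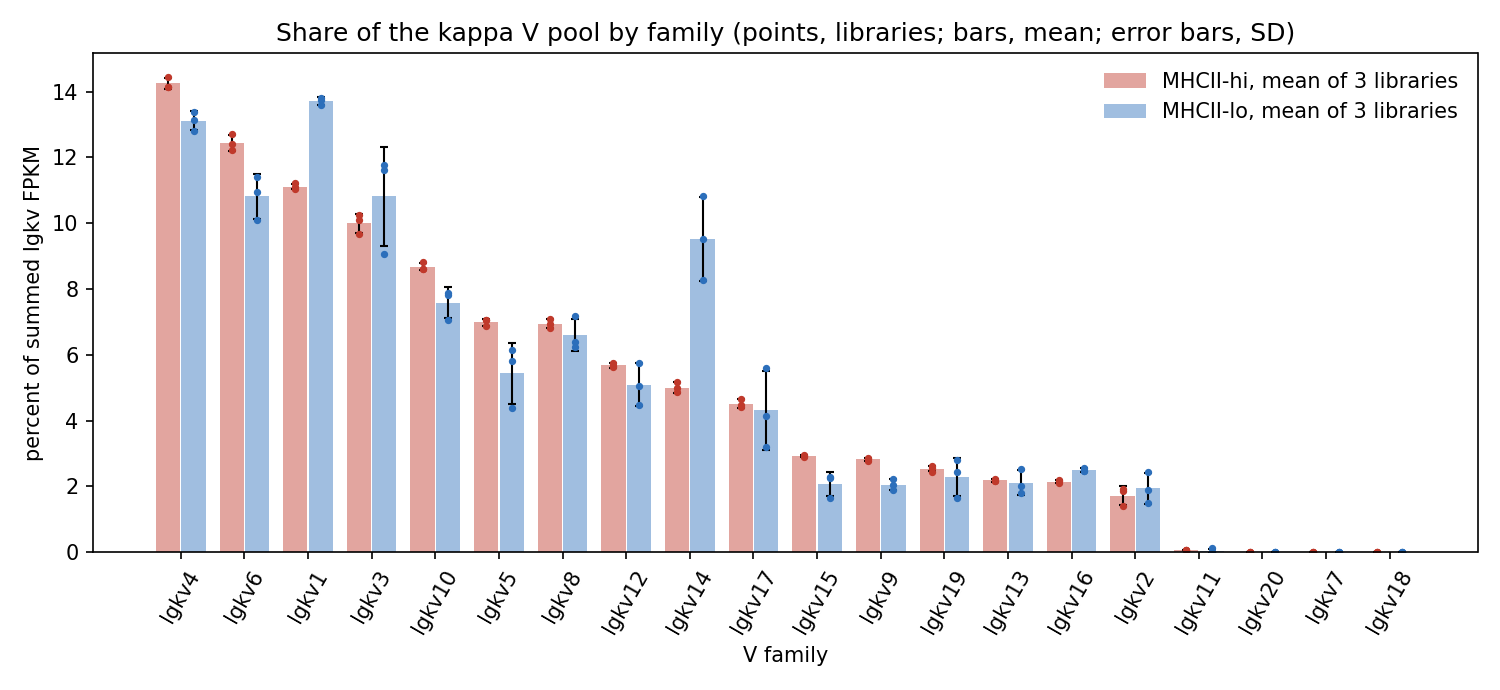
Share of summed Igkv FPKM by V family, in percent; bars are means, error bars SD and points the 3 libraries of each group. The Igkv14 bars stand at 5.00% in MHCII-hi, against 9.53% in MHCII-lo, the widest gap of the families.

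Segments in the orientation of the J segments held a smaller part of the pool in MHCII-hi, at 43.8%, 43.1% and 43.7%, than in MHCII-lo, at 50.6%, 49.1% and 50.4%. Segments more than 2000 kb from Igkj1 held 39.0% ± 0.489 and 44.1% ± 0.806, those at 1000 to 2000 kb 19.8% ± 0.122 and 18.2% ± 0.879, and those nearer than 1000 kb 41.2% ± 0.368 and 37.7% ± 1.64 (SD, n = 3 each). Without Igkv14-126, the part beyond 2000 kb was 38.7% ± 0.485 and 41.1% ± 0.411. The same-orientation share was then 43.2% in MHCII-hi, against 47.3% in MHCII-lo. In each of these the groups stayed apart, while the part at 1000 to 2000 kb was not recomputed. Without the 5 segments past Bonferroni adjustment the same-orientation share was 42.6% ± 0.388 and 44.5% ± 1.56. The part beyond 2000 kb was then 37.8% in both, and the groups overlapped in each. Of those 5, 3 are same-orientation segments beyond 2000 kb with smaller shares in MHCII-hi, so leaving out segments chosen for their change in share had to narrow both gaps. The effective number of segments without those 5 was 55.6 ± 0.171 and 49.4 ± 0.736, still apart. The sets left out were chosen after their values were seen.

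**Figure D4:**
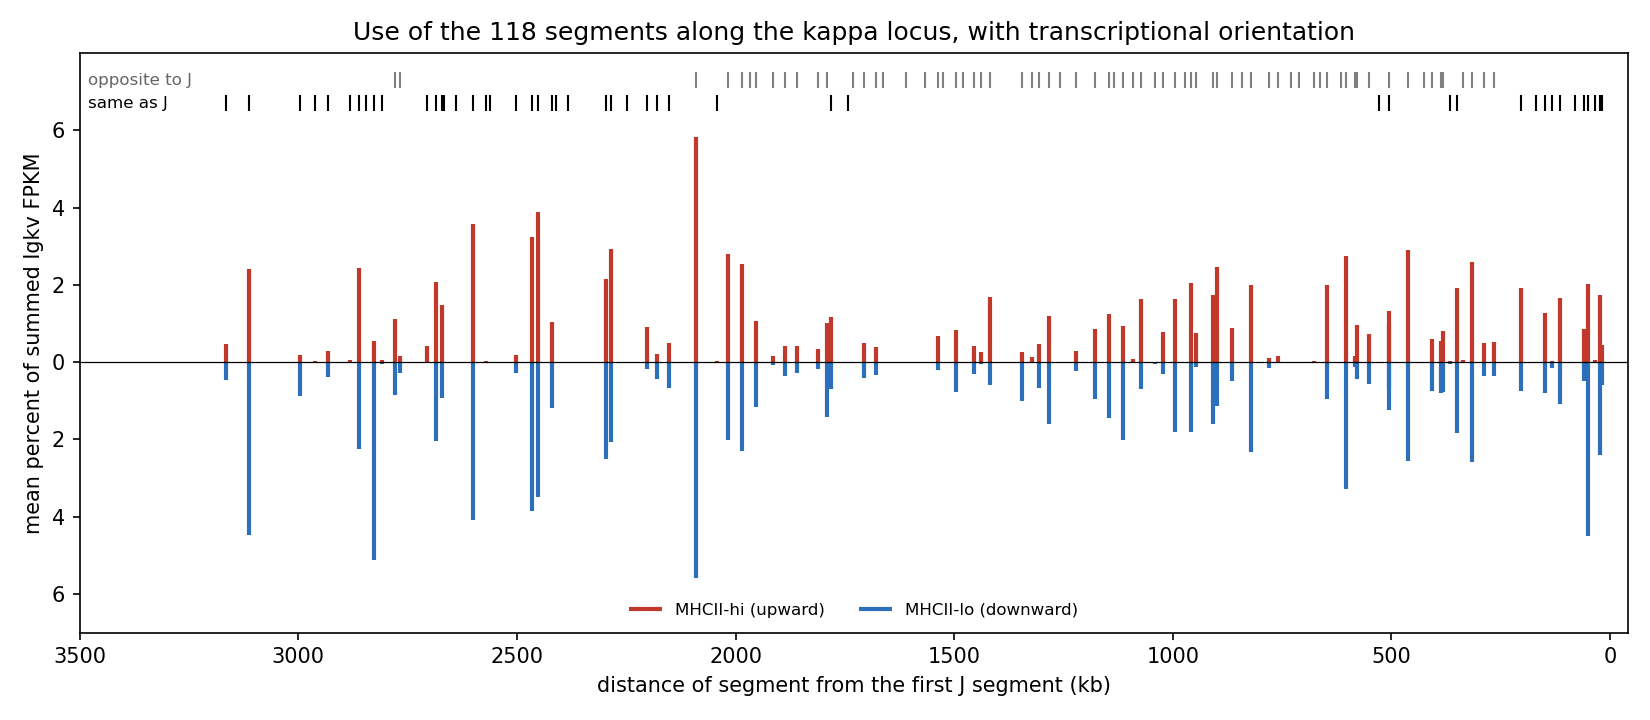
Mean percent of summed Igkv FPKM of each segment by its distance from Igkj1 in kb, upward for MHCII-hi and downward for MHCII-lo, with tick marks for transcriptional orientation at the top. The tallest bars in both directions belong to Igkv10-96, near 2090 kb, and the downward bar of Igkv14-126 near 2826 kb has a short upward partner.

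The segments listed at 0 in all MHCII-lo libraries numbered 29, of which 6 were listed at 0 in every library. Together the 29 held 50.6 to 58.7 FPKM per MHCII-hi library, 0.211% of the pool. At that share they would have had 0.946 FPKM, an estimated 8.01 fragments in a MHCII-lo library and 24.0 in the 3 together. The 29 were picked out by their 0 in MHCII-lo, so no difference in share is read from it. The most abundant was Igkv9-129, at 16.0, 16.6 and 12.3 FPKM in MHCII-hi.

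The 19 pseudogenes summed to 20.1 ± 6.18 FPKM in MHCII-hi (SD, n = 3), 0.0785% of the pool, and to 0 in all MHCII-lo libraries. At the MHCII-hi share, the 3 MHCII-lo libraries together would have held an estimated 9.10 pseudogene fragments. The groups did not overlap, and the difference in this summed share was not tested. Igkv2-116 led, at 9.16, 6.88 and 6.85 FPKM, followed by Igkv4-73, at 6.02, 1.83 and 3.45. Both reached the minimum through MHCII-hi alone, so their direction was fixed by the minimum. Igkv3-11, a pseudogene, was the only tested segment that did not pass: it measured 0.41, 0.39 and 9.77 FPKM in MHCII-hi, against 0 in MHCII-lo (limma adjusted p 0.141), so 1 library carried its mean. Just above the minimum of 1 FPKM lay Igkv3-11, Igkv4-71 and Igkv4-51, with means over the MHCII-hi libraries of 3.52, 2.88 and 2.80 FPKM. Just below it lay Igkv4-78, Igkv20-101-2 and Igkv4-77, with 1.72, 1.55 and 1.51.

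Use agreed closely among the MHCII-hi libraries. As a description over the 74 segments above 0 in all MHCII-lo libraries, which share depth and libraries, the Pearson correlation of log2 shares was 0.981 to 0.997 among MHCII-hi libraries, 0.866 to 0.923 among MHCII-lo libraries and 0.706 to 0.813 over the 9 pairs between groups. The overlap of 2 pools, the sum of the smaller share of each segment, was 97.5% to 98.1%, 87.1% to 88.0% and 79.9% to 81.1%. Segments with at least 20 estimated fragments had a median coefficient of variation of 3.64% in MHCII-hi (94 segments) and 19.8% in MHCII-lo (53 segments). Their variance divided by their mean, in estimated fragments, had a median of 2.58 in MHCII-hi and 2.09 in MHCII-lo. That quotient grows with the number of fragments when the relative spread is the same. Tested segments had a median of 1852 estimated fragments in MHCII-hi and 25.3 in MHCII-lo. The sets of segments differed as well, so the groups are not ranked by spread from it. Igkv2-137, the segment farthest from Igkj1, was an exception to the close agreement in MHCII-hi, chosen after its values were seen. It measured 164.2, 38.6 and 153.3 FPKM in MHCII-hi, where replicate 2 was low, and 1.69, 2.13 and 2.39 in MHCII-lo.

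The genes that act on the kappa locus moved in part. Of 19 factors that bind its promoters or enhancers, 17 were tested and 15 were higher, 1 lower and 1 not called, with a median log2 change of 0.27 against -0.04 for all genes. Over all genes tested 25.5% were higher. Of the 17, 4 reached the minimum through MHCII-hi alone, so their direction was fixed by it. Pou2af1, Irf4 and Ikzf3, given below, are among these 4. With quantile normalization 13 of the 17 were higher, 1 lower and 3 not called, beside 20.9% of all genes higher. Scaled without immunoglobulin genes, 16 were higher and 1 lower, beside 40.6% higher. Pou2af1, a coactivator of octamer-binding factors at V promoters, measured 16.1, 16.0 and 14.3 FPKM in MHCII-hi, against 0.23, 0.36 and 0.30 in MHCII-lo. Irf4, which acts at the kappa enhancers, measured 19.6, 19.2 and 19.8 FPKM, against 0.66, 0.65 and 0.34. Rel, an NF-kB subunit, stood at 21.1 ± 0.663 and 7.99 ± 0.0404 FPKM, and Ikzf3 at 4.09 ± 0.0611 and 0.753 ± 0.0404 (SD, n = 3 each). Spi1, also a marker of myeloid cells, was lower, at 53.1 ± 1.86 and 76.6 ± 1.72 FPKM.

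Of 13 recombination and end-joining genes, 10 were tested, with 2 higher, 5 lower and 3 not called, a median log2 change of -0.07. Over all genes tested the shares were 25.5% higher and 33.1% lower. Scaled without immunoglobulin genes, the split became 4 higher, 1 lower and 5 not called, beside 40.6% higher and 17.5% lower over all genes, so the split moved with that of all genes and no direction of the list is read from it. Dntt, which adds bases at junctions, was higher, at 12.1 ± 0.457 and 1.38 ± 0.252 FPKM, and Polm, a polymerase of end joining, at 4.30 ± 0.685 and 2.71 ± 0.171. Xrcc5, a subunit of the Ku end-binding complex, was lower in both scalings, at 4.46 ± 0.38 and 6.55 ± 0.38 FPKM (SD, n = 3 each).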

How the data were processed

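Per the labels' protocols, stranded mRNA libraries were made from sorted bone marrow cells. The submitters' processing notes list fastp, HISAT2, StringTie and GRCm38 (mm10), with no version, setting or annotation. Gene by gene, FPKM values were deposited for each library by the authors. The file headers name no unit, and FPKM was read from the values. The sources used here do not say how reads that match several segments were assigned.

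Of 30803 rows, 70 that shared a symbol were dropped in favour of the row with the highest mean. Levels were tested with limma 3.58.1 in R 4.3.3 on log2(FPKM + 1), and shares on log2(scaled FPKM + 0.1), each with an intensity trend, no covariate, two-sided, over all genes. Depth was estimated from the steps of 1 fragment in single-exon genes. Sums over segments are descriptions. Coordinates, types and coding sequences come from GENCODE M21, which lists 160 kappa V segments; the 42 with no row were not analysed here.

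Segments named are the 10 highest in MHCII-hi, the next 5 in MHCII-lo, the 5 largest changes in share each way, those that did not rise, the 3 on each side of the minimum and the top of each family of at least 4 members. List genes named are at most 4 a list; others were chosen after their values were seen, and some list genes are not reported here. The members and lists were chosen with earlier results of these data known, and Bonferroni adjustment after the data were seen.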

Additional observations from a re-analysis of the deposited data

How the results depend on the processing

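The count of segments higher in MHCII-hi stayed between 85 and 101 and the count lower at 0 over the alternative pseudocount, minimum values, scalings, variance model and libraries left out (91 to 94 with 1 library left out). Igkv3-11 passed with a pseudocount of 0.1 (adjusted p 0.0340). Larger and smaller shares were counted in 24 to 31 and 13 to 21 segments with 1 library left out, and in 2 and 3 with Bonferroni adjustment. Igkv6-15 turned from 0.005 to -0.18 in log2 share when the pool was scaled by the median ratio of segments (adjusted p 0.0312); the cause was not tested. Weighting by exon length gave 1.10% and 0.0192% of the library and effective numbers of 58.7 and 51.1; only the weight changed. Same-numbered libraries did not deviate together (correlations -0.09, -0.004 and -0.03). With 3 libraries in each group this cannot exclude a pairing by number, which the sources used here do not state. With a replicate block 93 segments were higher, 26 had larger and 17 smaller shares. Depth limits MHCII-lo, where 1 fragment is worth 0.113 to 0.122 FPKM at the median exon length and tested segments had a median of 25.3 estimated fragments.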
